A study of Sus scrofa with 10 samples.

Results

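The genes described here encode ATP-binding cassette (ABC) proteins of pig liver other than the canalicular exporters of bile salts, phospholipid and conjugates. They were taken by symbol from the deposited expression table: every gene named ABC followed by a subfamily letter from A to G and a number, except ABCB11, ABCB4, ABCC2 and ABCC3. The rule found 34 of 31905 genes. Of these, 9 belonged to subfamily A, 6 to B, 7 to C, 4 to D, 1 to E, 2 to F and 5 to G. No symbol occurred more than once, and of the 4 exclusions ABCB4 is not analysed here. ABCG5 and ABCG8 stay within the set although they too export into bile, since their cargo is sterols.

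The study followed liver failure after hepatectomy in pigs and its treatment with a bioartificial liver (BAL), an extracorporeal device that perfuses blood over a chamber for cells. All pigs were labelled wild type and all RNA was taken from liver, sequenced by RNA-seq and reported as FPKM, the fragments of a gene divided by its length and by the size of the library. The groups were day 8 with a device whose chamber held hiHep cells, human induced hepatocytes converted from another cell type (hiHepD8, labelled hiHep-BAL-Day8, n = 2 libraries), day 4 of the same device (hiHepD4, labelled hiHep-BAL-Day4, n = 1), day 3 with a device that held no cells (EmptyBAL, labelled Empty-BAL, n = 2), day 2 of liver failure with no device (NoBAL, labelled No-BAL, n = 2) and normal liver on day 0 (Control, n = 3). Every comparison therefore also set different days against each other, and time and treatment cannot be told apart. The labels name hepatocytes as the cell type but no step that isolates them, and markers of other liver cells were present in every group.

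ABC proteins bind and hydrolyse ATP through a conserved cassette, and most use it to move a substrate across a membrane. In liver, members of subfamilies A and G move cholesterol and other lipids to lipoproteins and bile, members of B serve mitochondria and iron handling, members of C export drugs and conjugates, and members of D load peroxisomes with fatty acids for oxidation. Subfamilies E and F have no membrane-spanning part and act on ribosomes and translation, so they are relatives by sequence and not transporters.

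Of the 34 genes, 26 reached 1 FPKM in at least 2 libraries and were tested. ABCA4 and ABCC9 passed only through the hiHepD8 libraries, where they were high, so no test of hiHepD8 is drawn from them and counts in comparisons of hiHepD8 are also given without them. The 8 that did not pass were ABCA5, ABCA7, ABCA12, ABCB5, ABCB9, ABCC11, ABCC12 and ABCD2. ABCC12 and ABCD2 were listed at 0 in all 10 libraries. ABCC11 reached 1.57 FPKM in the single hiHepD4 library and at most 0.261 FPKM elsewhere. ABCB9, a peptide transporter of lysosomes, reached 1.23 FPKM in EmptyBAL 1 and stayed below 1 FPKM in the other libraries, and ABCA5 lay between 0.402 and 0.953 FPKM in all 10.

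The libraries held between 10366 and 10862 genes at or above 1 FPKM, and their depth is unknown. Replicates were close in hiHepD8 (Pearson r = 0.992 of log2(FPKM + 1) over the 12180 genes tested) and Control (0.992 to 0.994), and less so in EmptyBAL (0.893) and NoBAL (0.956). Among the 26 tested members, none differed by more than 2-fold between the hiHepD8 libraries or between Control libraries, while 5 did between the EmptyBAL and 2 between the NoBAL libraries. EmptyBAL 1 stood apart for ABCD3, ABCG5 and ABCG8, which were far lower there than in EmptyBAL 2, and NoBAL 2 for ABCD3, which was far higher there than in NoBAL 1. The labels do not say that libraries of a group came from separate animals, and the p-values therefore reflect the spread between libraries alone, which may be technical.

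**Figure D1:**
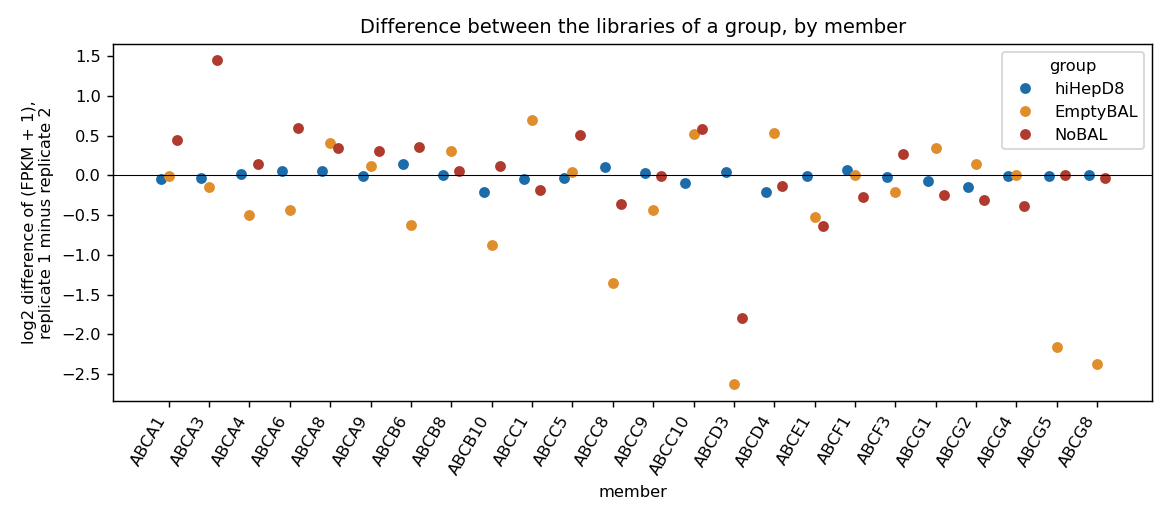
Difference between the 2 libraries of a group for 24 of the 26 tested members, in log2(FPKM + 1), replicate 1 minus replicate 2, with members along the horizontal axis. The hiHepD8 points stay near 0, while ABCD3 (-2.63), ABCG8 (-2.38) and ABCG5 (-2.16) were lower in EmptyBAL 1 than in EmptyBAL 2, and ABCD3 (-1.80) was lower in NoBAL 1 than in NoBAL 2.

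Marker genes of the liver's cell types also differed between groups, and in bulk tissue fewer cells of a type and less RNA per cell cannot be told apart. Summed over 5 of 5 hepatocyte markers, FPKM were 20410 and 20330 in hiHepD8, 21150 in hiHepD4, 3533 and 6362 in EmptyBAL, 13270 and 12190 in NoBAL, and 71640 to 73800 in Control, with no marker at 0. Summed over 9 of 9 macrophage markers they were 867 and 876 in hiHepD8, 1078 in hiHepD4, 845 and 1240 in EmptyBAL, 458 and 218 in NoBAL, and 1099 to 1205 in Control, again with none at 0. CD14 made up most of that sum in Control (680 to 752 FPKM) and was lower in EmptyBAL (-2.52 ± 0.49, adjusted p = 0.0035 with limma). In EmptyBAL 5 of the 9 were called higher than in Control, where 24.4% of all genes were. Among these 5, CD163 was at 84.1 and 108 FPKM in EmptyBAL against 12.01 to 13.1 in Control. Summed over 7 of 7 stellate and fibroblast markers they were 595 and 599 in hiHepD8, 151 in hiHepD4, 788 and 560 in EmptyBAL, 906 and 623 in NoBAL, and 319 to 353 in Control. Every failing or treated group thus had a lower hepatocyte marker sum than Control, where ALB made up most of it (52280 to 55100 FPKM). Against Control, 4 of the 5 hepatocyte markers were called lower in NoBAL, 5 in EmptyBAL and 2 in hiHepD8, and 0 higher in each. Of all genes 24.2%, 29.3% and 17.1% were lower in these groups. HNF4A had 117.8 and 118.7 FPKM in hiHepD8 against 104.5 to 112.3 in Control. The macrophage markers moved in different directions. Of 5 neutrophil markers, 3 were found, and their sum was 0.694 and 0.97 FPKM in hiHepD8, 626 and 100.5 in EmptyBAL, 233 and 26.2 in NoBAL, and at most 1.19 in Control, where S100A8 was at 0 in all 3 libraries. Of 5 cholangiocyte markers, 4 were found, summing to 27.6 and 29.0 FPKM in hiHepD8, 97.1 and 120 in EmptyBAL, 28.7 and 17.7 in NoBAL, and 12.1 to 13.1 in Control. T and NK cell markers (6 of 6) summed to 7.40 and 8.14 FPKM in hiHepD8, 15.2 and 14.9 in EmptyBAL, 0.903 and 0.370 in NoBAL, and 12.9 to 14.7 in Control. Endothelial markers (7 of 8 found) summed to 132 and 132 FPKM in hiHepD8, 195 and 86.9 in EmptyBAL, 78.8 and 117 in NoBAL, and 73.1 to 76.4 in Control. Neutrophil markers summed to 65.4 FPKM in hiHepD4, cholangiocyte markers to 16.3, T and NK cell markers to 7.03 and endothelial markers to 51.0. Over all 10 libraries, sums of B and plasma cell markers lay between 30.2 and 64.6 FPKM and platelet markers between 7.92 and 26.1. Red cell markers summed to between 4.49 and 293 FPKM, the highest in hiHepD4. The part of these shifts in the changes of ABC genes was not tested.

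Summed over their members, the subfamilies did not all share the same profile over the groups. Subfamily A, the lipid transporters, summed to 40.9 and 40.5 FPKM in hiHepD8, 41.1 in hiHepD4, 12.4 and 13.4 in EmptyBAL, 17.0 and 7.62 in NoBAL, and 85.2 to 86.6 in Control. The order was therefore Control, then both hiHep groups together, then EmptyBAL and NoBAL, whose libraries overlapped. Subfamily G summed to 59.8 and 61.7 FPKM in hiHepD8, 64.3 in hiHepD4, 16.7 and 27.7 in EmptyBAL, 56.4 and 61.2 in NoBAL, and 73.7 to 79.7 in Control, so that EmptyBAL lay apart below the rest. Subfamily B was low in hiHepD8 (18.9 and 19.8 FPKM) and EmptyBAL (20.1 and 23.6) and high in NoBAL (42.2 and 40.9), with Control between them (30.3 to 33.8). Subfamily F was highest in NoBAL, at 79.5 and 83.1 FPKM, against 43.1 to 45.1 in Control, while hiHepD8 had 48.4 and 47.9 and EmptyBAL 49.5 and 52.7. Subfamily C hardly separated the groups, with 12.6 to 22.0 FPKM over all 10 libraries, the highest in hiHepD4. The most abundant members also changed places: ABCF3, ABCG8 and ABCF1 led in hiHepD8, ABCF1, ABCF3 and ABCD3 in EmptyBAL, ABCD3, ABCF1 and ABCF3 in NoBAL, and ABCG8, ABCD3 and ABCA6 in Control.

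**Figure D2:**
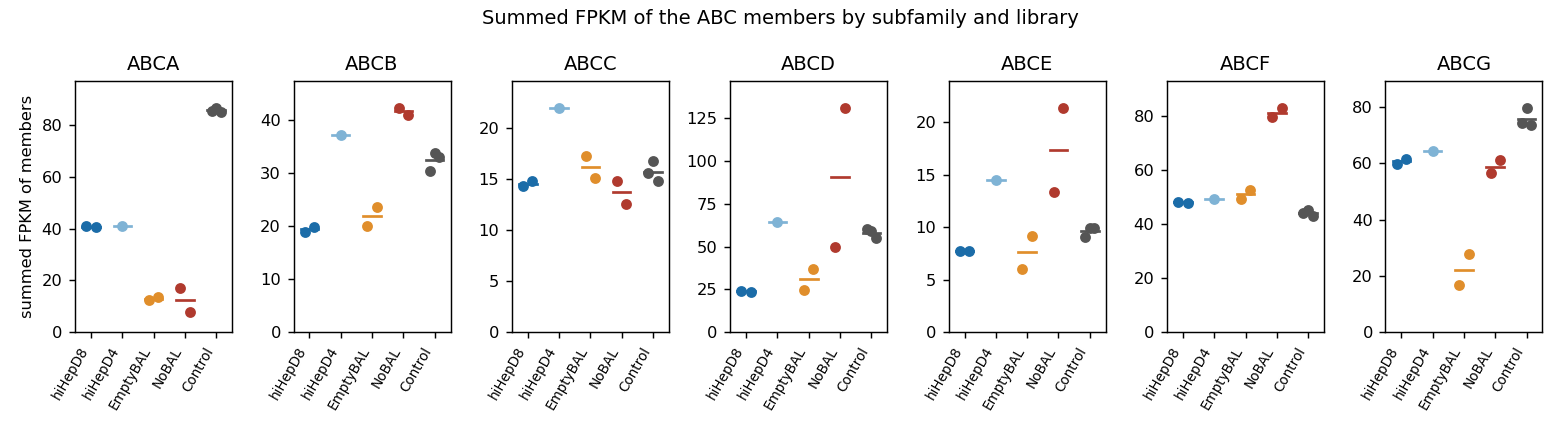
Summed FPKM of the members of each subfamily (vertical axis) in each library (points) by group, with group means as lines. Subfamily A is highest in Control and subfamily F in NoBAL, and subfamily G is lowest in EmptyBAL.

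Differences were tested with limma on log2(FPKM + 1) over all 12180 genes, and an adjusted p (Benjamini-Hochberg) under 0.05 made a call; every log2 change below is on this scale, with limma's standard error. The first question was how liver failure without a device differed from normal liver. In NoBAL against Control 6 of 26 members were called higher and 9 lower, where 25.2% and 24.2% of all genes were called (49.4% in either direction). All 5 called members of subfamily A were lower, with a median of -1.52 over its 6 tested members (-1.90 over the 5 without ABCA4, 4 of them lower), against 0.04 over all genes, and both members of F and the single member of E were higher. In EmptyBAL against Control 3 members were higher and 11 lower, where 24.4% and 29.3% of all genes were (53.7% in either direction). Subfamily A again had no member called higher and 4 called lower (median -1.44), and B had 3 lower and G had 3 lower and 1 higher.

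Day 8 of the cell-filled device was compared with failure without a device and with the device that held no cells. In hiHepD8 against NoBAL 9 members were called higher and 6 lower, where 22.5% and 24.8% of all genes were (47.3% in either direction), and 7 were higher without ABCA4 and ABCC9. Without ABCA4, 4 of 5 members of A were higher and 0 lower (median 1.86, against -0.03 over all genes), whereas E, F and D had no member higher and 1 lower each. In hiHepD8 against EmptyBAL 11 members were higher and 2 lower, where 22.6% and 17.6% of all genes were (40.2% in either direction), and 9 were higher without ABCA4 and ABCC9, 4 of them of A, 3 of G and 2 of B. The count of 13 calls became 8 and 7 when hiHepD8 1 or hiHepD8 2 was left out, which leaves 1 library in that group.

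Against Control, hiHepD8 had 7 members higher and 7 lower, where 15.1% and 17.1% of all genes were called (32.2% in either direction), and 5 were higher without ABCA4 and ABCC9. Of the other 5 members of A, 2 were higher (ABCA1 and ABCA9) and 3 lower (ABCA3, ABCA6 and ABCA8). The count of 14 became 7 and 8 without hiHepD8 1 or hiHepD8 2, and 22 when only the libraries of these 2 groups were fitted. In EmptyBAL against NoBAL 2 members were higher and 12 lower, where 12.6% and 21.4% of all genes were called (34.0% in either direction). This count of 14 became 7 without NoBAL 2, 9 without Control 3, hiHepD8 1 or hiHepD8 2, 8 after upper-quartile scaling or with the replicate number as a block, and 0 in a fit of only the 2 groups, where 8 members had an unadjusted p under 0.05. Over the 6 comparisons 85 changes were called in 25 of the 26 members. Both counts include ABCA4 and ABCC9, whose calls in hiHepD8 are not drawn on, and 78 of the changes were of other members. No called change reversed under any setting tried, but only 8 of the 85 were called when the Control libraries and the hiHepD8 libraries were each averaged to 1 sample. These were ABCA6 and ABCA8 in NoBAL and in EmptyBAL against Control, and ABCA8, ABCA9, ABCG1 and ABCB8 in hiHepD8 against NoBAL.

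**Figure D3:**
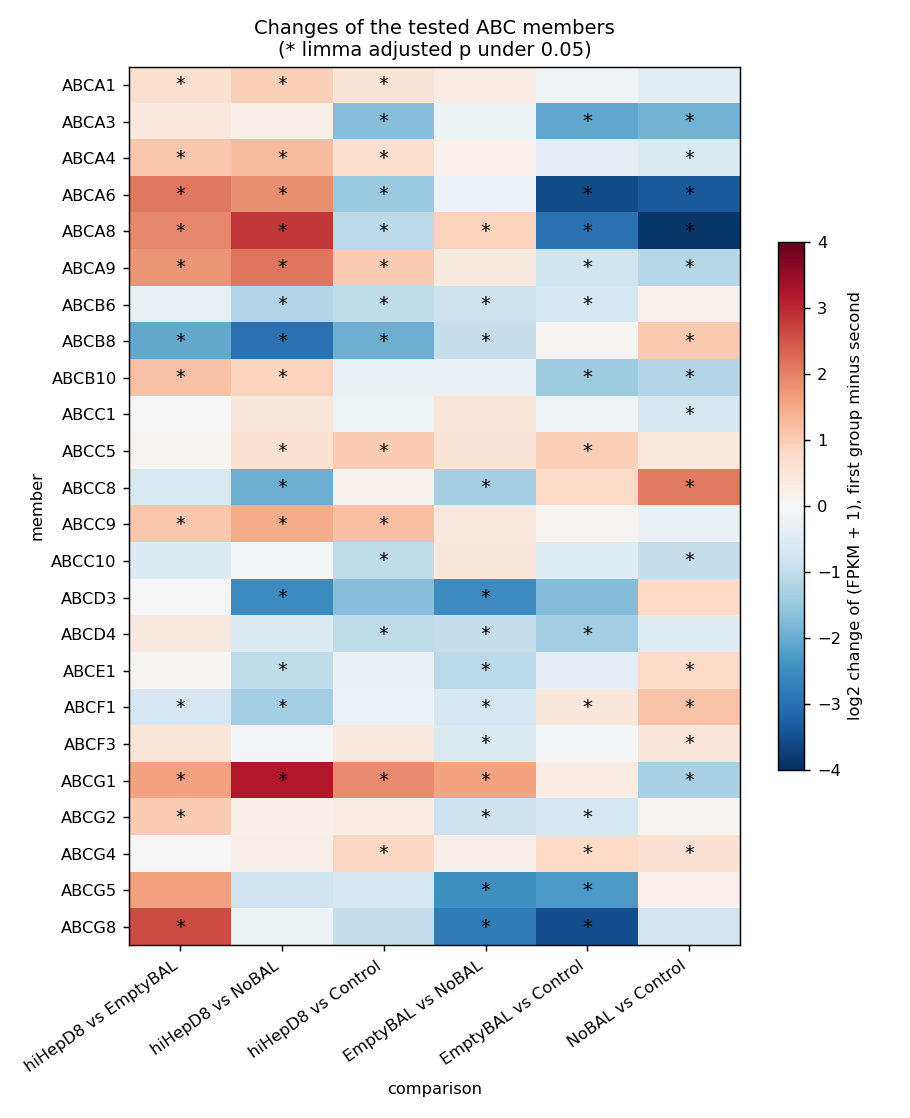
Log2 change of (FPKM + 1), first-named group minus second, for 24 of the 26 tested members (down the page) in the 6 comparisons (across), with a star at a limma adjusted p under 0.05. The stars of ABCA4 and ABCC9 in hiHepD8 rest on libraries through which these genes entered. ABCG1 in hiHepD8 against NoBAL (3.20) and ABCA8 in NoBAL against Control (-3.88) are the extremes.

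ABCG5 and ABCG8 encode the paired subunits of the transporter that exports cholesterol and plant sterols into bile. The genes lie head to head on chromosome 3 of Sscrofa11.1, ABCG8 at 96596975 to 96616224 and ABCG5 at 96616304 to 96656893, with 79 bases between them. ABCG8 had 24.4 and 24.4 FPKM in hiHepD8, 33.0 in hiHepD4, 0.838 and 8.56 in EmptyBAL, 27.8 and 28.5 in NoBAL, and 48.7, 49.1 and 47.1 in Control. ABCG5 had 8.11 and 8.19 FPKM in hiHepD8, 14.98 in hiHepD4, 0.379 and 5.18 in EmptyBAL, 15.04 and 14.88 in NoBAL, and 13.3, 13.7 and 12.8 in Control. Both genes were thus lowest in the 2 EmptyBAL libraries, without overlap with any other group, and EmptyBAL 1 was the lower by far.

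Against Control, ABCG8 was lower in EmptyBAL by 3.55 ± 0.57 on the log2 scale (a change of -3.55, adjusted p = 0.0014) and ABCG5 by 2.29 ± 0.52 (-2.29, adjusted p = 0.0073). Without EmptyBAL 1 the changes were -2.37 (adjusted p = 1.7e-05) and -1.21 (adjusted p = 0.00023), so that both calls held at a smaller size. Against NoBAL, EmptyBAL was lower by -2.80 ± 0.62 for ABCG8 (adjusted p = 0.014) and -2.45 ± 0.57 for ABCG5 (adjusted p = 0.016). Without EmptyBAL 1 these were -1.61 and -1.37 (adjusted p = 0.0007 and 0.0011), and without NoBAL 2 neither was called (adjusted p = 0.057 and 0.062), nor was ABCG5 without NoBAL 1 (0.055).

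In hiHepD8 ABCG8 was higher than in EmptyBAL by 2.60 ± 0.62 (adjusted p = 0.013), and by 1.41 without EmptyBAL 1 (adjusted p = 0.00027). That call was lost without either hiHepD8 library (adjusted p = 0.067 and 0.068). ABCG5 had a change of 1.65 ± 0.57 in the same comparison (adjusted p = 0.051), and of 0.57 ± 0.12 without EmptyBAL 1 (adjusted p = 0.009, called). Between NoBAL and Control, the ABCG8 libraries did not overlap but the difference was not called (-0.76 ± 0.57, adjusted p = 0.30), and the same held for hiHepD8 against Control (-0.96 ± 0.57, adjusted p = 0.24). The standard error of 0.57 takes in the spread of the EmptyBAL libraries. Fitted with their own libraries alone, both differences were called, with standard errors of 0.10 and 0.04 (adjusted p = 0.0023 and 4.3e-06), as they were without EmptyBAL 1 (adjusted p = 0.00035 and 0.00022).

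The partner genes did not keep the same proportion. The ratio of ABCG8 to ABCG5 in FPKM was 3.0 and 2.98 in hiHepD8, 2.20 in hiHepD4, 2.21 and 1.65 in EmptyBAL, 1.85 and 1.92 in NoBAL, and 3.66, 3.57 and 3.67 in Control. It was highest in Control and lower in hiHepD8, and the libraries of the other groups lay below both. ABCB11, the bile salt export pump and a gene outside the set, had 26.7 and 26.1 FPKM in hiHepD8, 19.2 in hiHepD4, 0.889 and 7.22 in EmptyBAL, 5.98 and 7.89 in NoBAL, and 55.2 to 57.4 in Control. It was called lower in NoBAL than in Control (-2.86 ± 0.52, adjusted p = 0.0028), where ABCG5 was not (0.16 ± 0.52, adjusted p = 0.81). ABCC2 and ABCC3, also excluded from the set, were not called there either (-0.29 ± 0.71 and 0.48 ± 0.47, adjusted p = 0.75 and 0.42 with limma).

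ABCG1 and ABCA1 move cholesterol out of cells, ABCG1 to mature high-density lipoprotein (HDL) and ABCA1 to lipid-poor apolipoprotein A-I, which begins an HDL particle. ABCG1 had 9.94 and 10.5 FPKM in hiHepD8, 0.302 in hiHepD4, 3.18 and 2.29 in EmptyBAL, 0.120 and 0.333 in NoBAL, and 1.92, 2.11 and 2.03 in Control. The hiHepD8 libraries stood above all others, and NoBAL and hiHepD4 stood below all others. ABCG1 was higher in hiHepD8 than in NoBAL by 3.20 ± 0.17 (adjusted p = 2.3e-05), than in Control by 1.89 ± 0.15 (adjusted p = 0.00012) and than in EmptyBAL by 1.60 ± 0.17 (adjusted p = 0.00041). It was lower in NoBAL than in Control (-1.30 ± 0.15, adjusted p = 0.00034) and higher in EmptyBAL than in NoBAL (1.60 ± 0.17, adjusted p = 0.0017). All 5 calls held without each library in turn. Macrophages are rich in ABCG1, and of their 9 markers 3 were called higher (CD163, CSF1R and VSIG4) and 1 lower (MARCO) in hiHepD8 against Control, 6 higher and 1 lower in hiHepD8 against NoBAL, 8 higher and 0 lower in EmptyBAL against NoBAL, and 0 higher and 5 lower in NoBAL against Control. In hiHepD8 against EmptyBAL 1 was higher and 4 were lower. Over all genes 15.1% were higher and 17.1% lower in hiHepD8 against Control, and 25.2% and 24.2% in NoBAL against Control. The shares were 22.5% and 24.8% in hiHepD8 against NoBAL, 22.6% and 17.6% in hiHepD8 against EmptyBAL, and 12.6% and 21.4% in EmptyBAL against NoBAL. CD163, a scavenger receptor of macrophages, had 42.1 and 45.7 FPKM in hiHepD8, 26.9 in hiHepD4, 84.1 and 108 in EmptyBAL, 11.1 and 10.4 in NoBAL, and 12.01 to 13.1 in Control. The part of macrophages in the ABCG1 differences was not tested.

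ABCA1 differed less. It had 5.21 and 5.42 FPKM in hiHepD8, 6.12 in hiHepD4, 3.03 and 3.06 in EmptyBAL, 2.84 and 1.81 in NoBAL, and 3.36, 3.25 and 3.65 in Control. Both hiHep groups were above every other library. It was higher in hiHepD8 than in NoBAL by 0.94 ± 0.17 (adjusted p = 0.0035). The smaller differences from EmptyBAL (0.64 ± 0.17, adjusted p = 0.021) and from Control (0.52 ± 0.16, adjusted p = 0.041) were lost without hiHepD8 1 or hiHepD8 2, and the difference from Control also without any single Control library, with adjusted p up to 0.21. ABCG4, a close relative of ABCG1 best known from brain, had 7.19 and 7.23 FPKM in hiHepD8, 5.89 in hiHepD4, 7.17 and 7.14 in EmptyBAL, 5.13 and 6.98 in NoBAL, and 3.37 to 4.07 in Control. Control was the lowest group, and EmptyBAL was above it by 0.81 ± 0.16 (adjusted p = 0.0036).

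**Figure D4:**
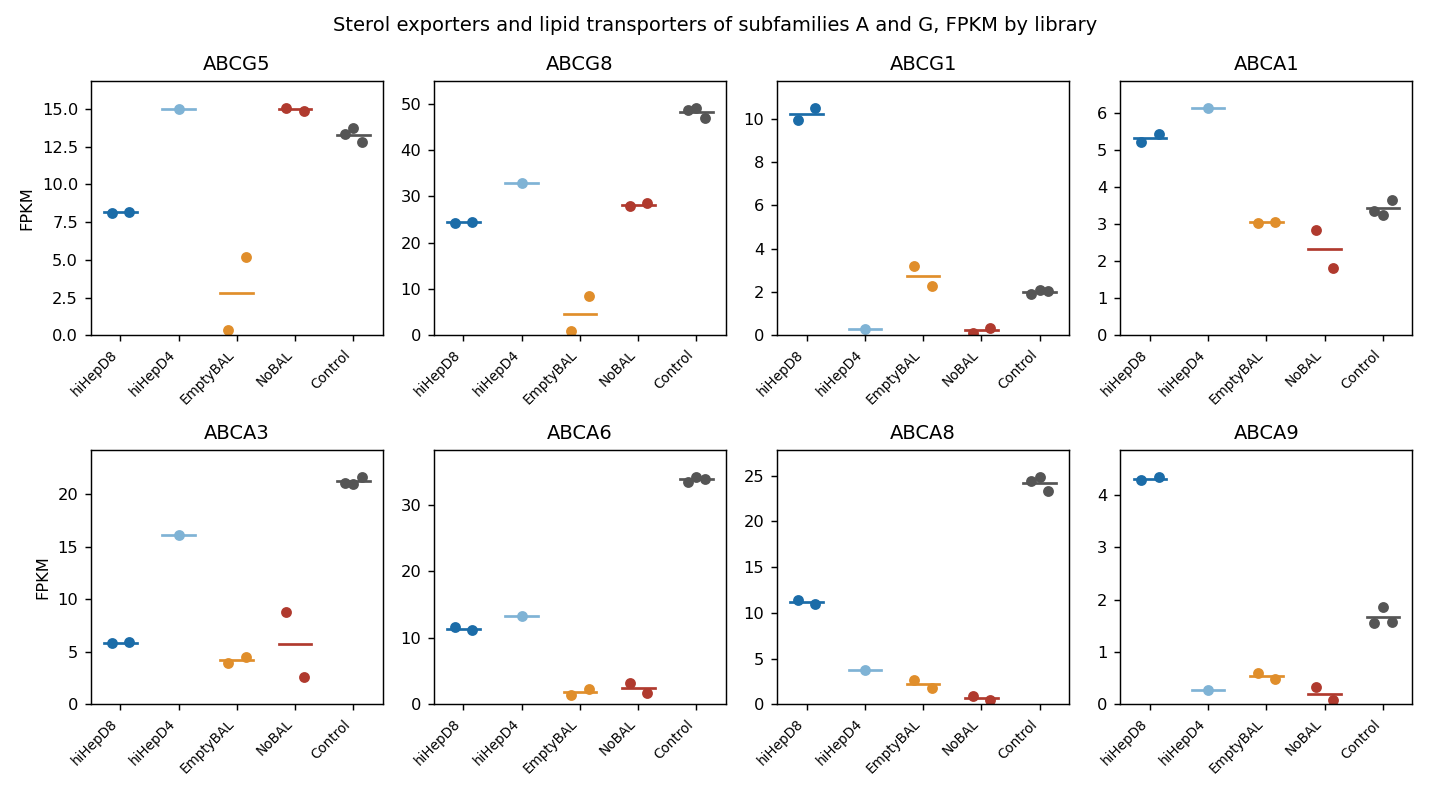
FPKM (vertical axes, each from 0) of 8 sterol and lipid transporters by group, with 1 point per library and group means as lines. ABCG5 and ABCG8 are lowest in EmptyBAL, ABCG1 and ABCA9 highest in hiHepD8, and ABCA3, ABCA6 and ABCA8 highest in Control.

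A list of 12 other genes of sterol efflux and its control by the liver X receptors (LXR, the sterol sensors that switch on ABCA1 and ABCG1) was tested in full. In hiHepD8 against NoBAL 4 were called higher and 3 lower, and in hiHepD8 against EmptyBAL 6 higher and 3 lower. Against Control, 2 were higher and 3 lower in hiHepD8, 1 higher and 7 lower in EmptyBAL, and 2 higher and 6 lower in NoBAL. Among all genes 22.5% were higher and 24.8% lower in hiHepD8 against NoBAL, and 22.6% and 17.6% in hiHepD8 against EmptyBAL. Against Control the shares were 15.1% and 17.1% in hiHepD8, 24.4% and 29.3% in EmptyBAL, and 25.2% and 24.2% in NoBAL. MYLIP, an LXR target that marks the LDL receptor for degradation, had 9.64 and 8.81 FPKM in hiHepD8, 1.39 in hiHepD4, 3.09 and 3.93 in EmptyBAL, 0.983 and 0.956 in NoBAL, and 2.71 to 2.997 in Control. The hiHepD8 libraries were the highest and the NoBAL libraries the lowest, and the difference between them was 2.38 ± 0.15 (adjusted p = 3.8e-05). SREBF1, which encodes a regulator of fatty acid synthesis and is also an LXR target, had 98.9 and 96.7 FPKM in hiHepD8, 16.9 in hiHepD4, 10.6 and 12.9 in EmptyBAL, 20.7 and 19.7 in NoBAL, and 46.4 to 52.2 in Control. LPCAT3, a phospholipid remodelling enzyme and LXR target, went the other way, with 32.6 and 31.4 FPKM in hiHepD8, 57.7 in hiHepD4, 24.9 and 37.4 in EmptyBAL, 104 and 134 in NoBAL, and 28.1 to 31.6 in Control (hiHepD8 against NoBAL -1.85 ± 0.23, adjusted p = 0.00063). APOA1, the HDL protein that accepts cholesterol from ABCA1, was lower in EmptyBAL than in Control (-2.39 ± 0.30, adjusted p = 0.00048) and higher in hiHepD8 than in EmptyBAL (1.93 ± 0.33, adjusted p = 0.0033).

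ABCA6, ABCA8 and ABCA9 are closely related lipid transporters whose genes, with ABCA5, form a cluster in mammals, and ABCA8 has been tied to HDL cholesterol in people and mice. On Sscrofa11.1, ABCA5 lies on chromosome 12 at 11018692 to 11152916 and ABCA6 at 11225068 to 11369161, with 72151 bases between them. Their sequences are alike, so the counting may have exchanged fragments between them, and their values are uncertain to that degree. ABCA6 had 11.6 and 11.2 FPKM in hiHepD8, 13.4 in hiHepD4, 1.49 and 2.35 in EmptyBAL, 3.18 and 1.77 in NoBAL, and 33.5, 34.1 and 33.9 in Control. ABCA8 had 11.4 and 10.98 FPKM in hiHepD8, 3.73 in hiHepD4, 2.69 and 1.79 in EmptyBAL, 0.929 and 0.526 in NoBAL, and 24.4, 24.8 and 23.3 in Control. For both genes Control was highest and hiHepD8 lay between it and the EmptyBAL and NoBAL groups, without overlap. The hepatocyte marker sum was also highest in Control, and its part in these differences was not tested.

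ABCA8 was 33.3-fold lower in mean FPKM in NoBAL than in Control (log2 change -3.88 ± 0.17, adjusted p = 5.5e-06) and ABCA6 13.7-fold lower (-3.36 ± 0.21, adjusted p = 2.3e-05). In EmptyBAL the changes from Control were -2.97 ± 0.17 for ABCA8 and -3.59 ± 0.21 for ABCA6 (adjusted p = 1.6e-05 for each). In hiHepD8 ABCA8 was higher than in NoBAL by 2.83 ± 0.19 (adjusted p = 5.1e-05) and ABCA6 by 1.86 ± 0.23 (adjusted p = 0.00059), and both stayed lower than in Control, by -1.05 ± 0.17 and -1.49 ± 0.21 (adjusted p = 0.0031 and 0.0015). Between EmptyBAL and NoBAL only ABCA8 of subfamily A was called (0.90 ± 0.19, adjusted p = 0.012). All of these calls held without each library in turn.

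ABCA9 was much less abundant and ran differently. It had 4.28 and 4.33 FPKM in hiHepD8, 0.278 in hiHepD4, 0.604 and 0.478 in EmptyBAL, 0.338 and 0.0774 in NoBAL, and 1.55, 1.87 and 1.58 in Control. The hiHepD8 libraries lay above Control (1.0 ± 0.14, adjusted p = 0.0014), whereas hiHepD4, EmptyBAL and NoBAL lay below it. The difference between hiHepD8 and NoBAL was 2.14 ± 0.15 (adjusted p = 5.9e-05). ABCA3, which loads phospholipid into the lamellar bodies of lung surfactant, had 5.80 and 5.97 FPKM in hiHepD8, 16.1 in hiHepD4, 3.94 and 4.48 in EmptyBAL, 8.83 and 2.60 in NoBAL, and 21.1, 21.0 and 21.6 in Control. It was called lower than Control in all 3 tested groups, by -1.69 ± 0.36 in hiHepD8, -2.09 ± 0.36 in EmptyBAL and -1.90 ± 0.36 in NoBAL (adjusted p = 0.0096, 0.0020 and 0.0035). The hiHepD8 call was lost without hiHepD8 1 or hiHepD8 2 (adjusted p = 0.070 and 0.065), and the NoBAL change was -1.18 without NoBAL 2 (adjusted p = 0.0013). In hiHepD8 against NoBAL ABCA3 was not called (0.21 ± 0.39, adjusted p = 0.69). ABCA4, a transporter of retinoids in the retina, was at 1.74 and 1.70 FPKM in hiHepD8 and at 0.754 or below in every other library.

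Subfamily B holds the mitochondrial members. ABCB8 is an inner membrane protein tied to iron export, and ABCB10 protects heme synthesis. ABCB8 had 1.77 and 1.76 FPKM in hiHepD8, 15.7 in hiHepD4, 11.8 and 9.34 in EmptyBAL, 21.4 and 20.7 in NoBAL, and 8.58, 10.3 and 10.1 in Control. The hiHepD8 libraries were far below all others, and the NoBAL libraries above all others. ABCB8 was lower in hiHepD8 than in NoBAL by -2.99 ± 0.17 (adjusted p = 3e-05), than in EmptyBAL by -2.06 ± 0.17 (adjusted p = 0.00018) and than in Control by -1.95 ± 0.16 (adjusted p = 0.00012). It was higher in NoBAL than in Control by 1.05 ± 0.16 (adjusted p = 0.0011). These 4 calls held without each library in turn.

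ABCB10 did not share this profile. It had 5.52 and 6.53 FPKM in hiHepD8, 4.41 in hiHepD4, 1.30 and 3.23 in EmptyBAL, 2.92 and 2.60 in NoBAL, and 7.11 to 7.79 in Control. ABCB10 was lower than Control in NoBAL (-1.17 ± 0.24, adjusted p = 0.0056) and in EmptyBAL (-1.43 ± 0.24, adjusted p = 0.0019). ABCB6, a porphyrin transporter, had 3.21 and 2.82 FPKM in hiHepD8, 5.88 in hiHepD4, 2.99 and 5.18 in EmptyBAL, 9.17 and 6.95 in NoBAL, and 6.83 to 7.41 in Control, and was lower in hiHepD8 than in NoBAL (-1.16 ± 0.23, adjusted p = 0.0047).

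Of a list of 15 genes of mitochondrial heme and iron-sulfur cluster synthesis, 14 were tested. In NoBAL against Control 5 were higher and 4 lower, in EmptyBAL against Control 3 higher and 9 lower, and in hiHepD8 against Control 0 higher and 6 lower. In hiHepD8 against EmptyBAL, where ABCB8 was lower, 4 were higher and 2 lower. In hiHepD8 against NoBAL 1 was higher and 5 lower, and in EmptyBAL against NoBAL 0 higher and 4 lower. Of all genes 25.2% were higher and 24.2% lower in NoBAL against Control, 24.4% and 29.3% in EmptyBAL and 15.1% and 17.1% in hiHepD8. The shares were 22.6% and 17.6% in hiHepD8 against EmptyBAL, 22.5% and 24.8% in hiHepD8 against NoBAL, and 12.6% and 21.4% in EmptyBAL against NoBAL. UROD, a heme synthesis enzyme, had 10.5 and 12.8 FPKM in hiHepD8, 32.7 in hiHepD4, 26.6 and 40.8 in EmptyBAL, 64.2 and 48.8 in NoBAL, and 22.1 to 25.4 in Control. It was the lowest in hiHepD8 and the highest in NoBAL, as ABCB8 was. ALAS1, the rate-limiting enzyme of heme synthesis in liver, was lower than Control in EmptyBAL (-4.21 ± 0.67, adjusted p = 0.0014) and in NoBAL (-2.47 ± 0.67, adjusted p = 0.017).

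Members of subfamily D import acyl-CoA into peroxisomes, except ABCD4, which handles cobalamin in lysosomes. ABCD3, the major peroxisomal membrane protein of liver, had 10.004 and 9.72 FPKM in hiHepD8, 42.1 in hiHepD4, 3.34 and 25.9 in EmptyBAL, 32.3 and 115 in NoBAL, and 34.9, 35.4 and 33.2 in Control. Only the hiHepD8 and Control libraries were close to their partners, and the EmptyBAL range enclosed hiHepD8. ABCD3 was called lower in hiHepD8 than in NoBAL (-2.52 ± 0.82, adjusted p = 0.037) and in EmptyBAL than in NoBAL (-2.53 ± 0.82, adjusted p = 0.048). Both calls were lost without NoBAL 2 (-1.62 and -1.63, adjusted p = 0.21 and 0.23), and the call in EmptyBAL against NoBAL also without EmptyBAL 1 (-1.21, adjusted p = 0.18). Without EmptyBAL 2 that change was -3.84 (adjusted p = 0.0025). Both were also lost, at adjusted p of 0.06 and 0.079, without any Control library, and without either hiHepD8 library at adjusted p of 0.079 to 0.13. Against Control hiHepD8 was not called (-1.71 ± 0.75, adjusted p = 0.12), although its libraries lay below all of Control, and it was called in a fit of these groups alone (adjusted p = 8.3e-07).

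ABCD4 had 5.85 and 6.91 FPKM in hiHepD8, 15.2 in hiHepD4, 5.87 and 3.76 in EmptyBAL, 9.29 and 10.3 in NoBAL, and 15.7, 13.0 and 13.1 in Control. Control and hiHepD4 were highest, and EmptyBAL was lower than Control by -1.38 ± 0.19 (adjusted p = 0.0008), a call that held without each library. In hiHepD8 the change from Control was -1.02 ± 0.19 (adjusted p = 0.0061), lost without hiHepD8 1 (adjusted p = 0.071). Of 12 genes of peroxisome import and beta-oxidation, all tested, 11 were lower in EmptyBAL than in Control and 8 were higher in hiHepD8 than in EmptyBAL, with 0 in the other direction each time. In hiHepD8 6 were lower than in Control and 0 higher, and in NoBAL 4 were lower than in Control and 0 higher. Against Control 29.3% of all genes were lower in EmptyBAL, 17.1% in hiHepD8 and 24.2% in NoBAL. In hiHepD8 22.6% of all genes were higher than in EmptyBAL. ACOX2, a peroxisomal oxidase of bile acid precursors, had 213 and 212 FPKM in hiHepD8, 77.7 in hiHepD4, 12.6 and 19.6 in EmptyBAL, 28.8 and 38.8 in NoBAL, and 159 to 167 in Control. Its highest values were in hiHepD8, although the difference from Control was not called (0.39 ± 0.23, adjusted p = 0.23). CAT, the peroxisomal catalase, was lower than Control in all 3 tested groups, at 285 and 280 FPKM in hiHepD8, 19.2 and 116 in EmptyBAL and 93.8 and 202 in NoBAL, against 2124 to 2143 in Control.

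**Figure D5:**
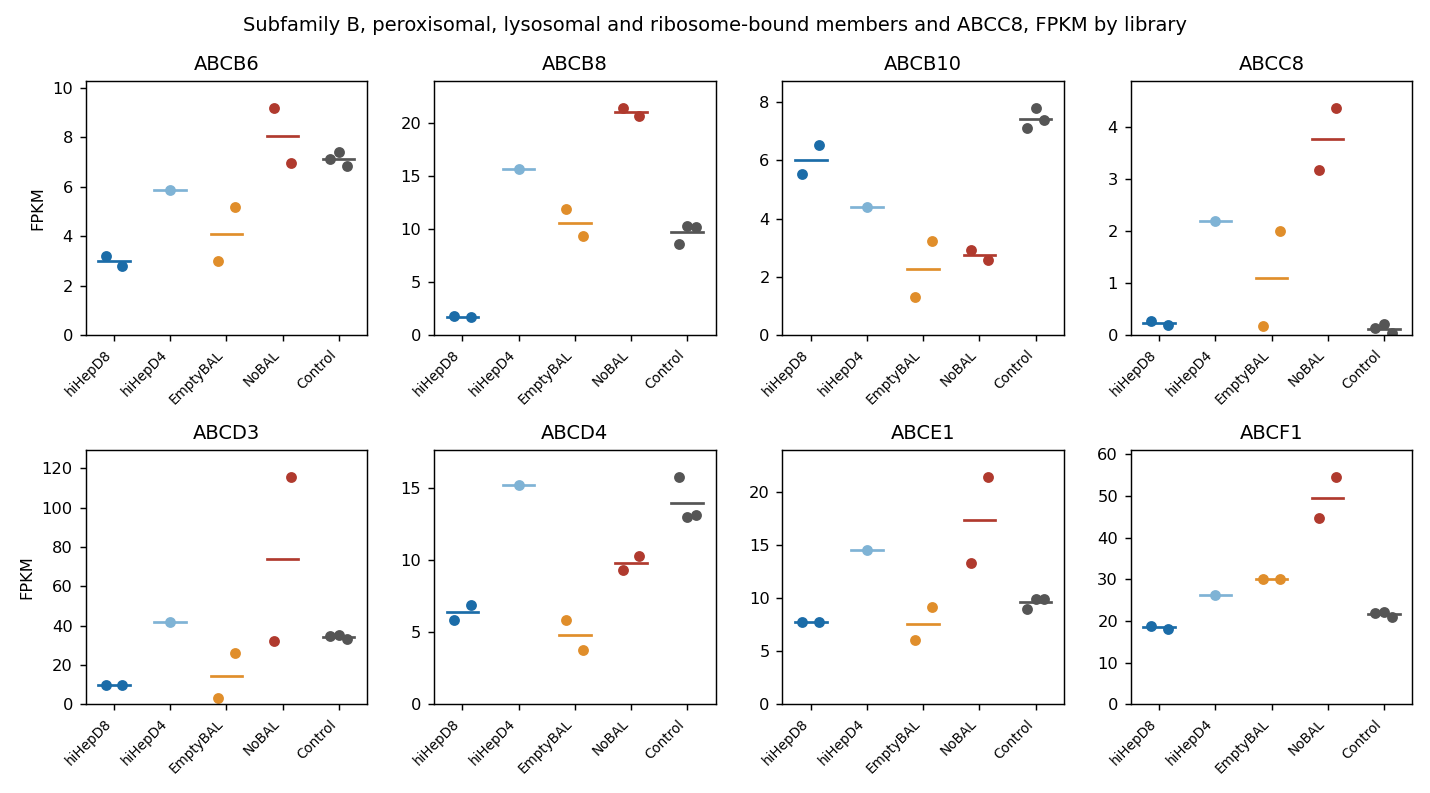
FPKM (vertical axes, each from 0) of subfamily B (ABCB6, ABCB8, ABCB10), peroxisomal (ABCD3), lysosomal (ABCD4) and ribosome-bound (ABCE1, ABCF1) members and of ABCC8 by group, with 1 point per library and group means as lines. ABCB8, ABCC8, ABCE1 and ABCF1 are highest in NoBAL, and the libraries of ABCD3 spread widely in NoBAL and EmptyBAL.

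All 3 members without membrane spans, each of them tested, rose in NoBAL over Control. ABCF1 assists the start of translation, the yeast relative of ABCF3 works in the GCN pathway that throttles translation, and ABCE1 splits ribosomes after termination so that they can be reused. ABCF1 had 18.9 and 18.0 FPKM in hiHepD8, 26.2 in hiHepD4, 30.0 and 30.0 in EmptyBAL, 44.8 and 54.4 in NoBAL, and 22.0, 22.1 and 21.1 in Control. NoBAL was the highest group and hiHepD8 the lowest, with no overlap among the 5 groups. ABCF1 was higher in NoBAL than in Control by 1.15 ± 0.15 (adjusted p = 0.0006) and lower in hiHepD8 than in NoBAL by -1.37 ± 0.16 (adjusted p = 0.0005), and both calls held without each library. Its rise in EmptyBAL over Control (0.45 ± 0.15, adjusted p = 0.035) was lost without any Control or hiHepD8 library, with adjusted p up to 0.11.

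ABCE1 had 7.73 and 7.77 FPKM in hiHepD8, 14.5 in hiHepD4, 6.04 and 9.15 in EmptyBAL, 13.3 and 21.4 in NoBAL, and 9.03 to 9.91 in Control. It was higher in NoBAL than in Control by 0.76 ± 0.23 (adjusted p = 0.028), but by 0.43 and not called without NoBAL 2 (adjusted p = 0.16), and not called without any Control or hiHepD8 library either (adjusted p = 0.053 to 0.084). ABCF3 had 29.4 and 29.9 FPKM in hiHepD8, 23.0 in hiHepD4, 19.4 and 22.6 in EmptyBAL, 34.7 and 28.6 in NoBAL, and 22.0 to 23.0 in Control. Its rise in NoBAL over Control (0.47 ± 0.16, adjusted p = 0.036) was lost without NoBAL 1 and without any Control or hiHepD8 library (adjusted p = 0.077 to 0.11). Of 12 genes of ribosome recycling and the GCN2 pathway, 11 were tested. In NoBAL against Control 8 were higher and 1 lower, where 25.2% and 24.2% of all genes were. In hiHepD8 against NoBAL 7 were lower and 0 higher, where 24.8% of all genes were lower. In EmptyBAL against NoBAL 8 were lower (21.4% of all genes) and 0 higher. Of these, EIF2S1, the subunit of initiation factor 2 on which stress kinases act, had 7.24 and 6.40 FPKM in hiHepD8, 16.9 in hiHepD4, 4.997 and 10.8 in EmptyBAL, 21.3 and 41.7 in NoBAL, and 7.14 to 8.68 in Control. PELO, which rescues stalled ribosomes together with ABCE1, was higher in NoBAL than in Control by 0.99 ± 0.14 (adjusted p = 0.0009).

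Subfamily C and ABCG2 include exporters of drugs and conjugates. No gene named ABCB1 or ABCC4 was among those the rule found, so these exporters are not covered. ABCC5, which exports cyclic nucleotides and glutamate conjugates, had 4.94 and 5.08 FPKM in hiHepD8, 10.1 in hiHepD4, 4.77 and 4.60 in EmptyBAL, 3.75 and 2.33 in NoBAL, and 2.07, 1.86 and 1.96 in Control. Control was below every other library, and the change from Control was 1.02 ± 0.17 in hiHepD8 (adjusted p = 0.0031) and 0.94 ± 0.17 in EmptyBAL (adjusted p = 0.0024). ABCC10 had 4.31 and 4.67 FPKM in hiHepD8, 7.38 in hiHepD4, 8.45 and 5.58 in EmptyBAL, 6.16 and 3.75 in NoBAL, and 9.67, 11.3 and 9.58 in Control. Here Control was above every other library, and NoBAL was lower by -0.94 ± 0.23 (adjusted p = 0.011; 0.064 without NoBAL 2) and hiHepD8 by -1.02 ± 0.23 (adjusted p = 0.011; 0.092 and 0.070 without hiHepD8 1 or hiHepD8 2). ABCC1, a broad exporter of glutathione conjugates, was called only in NoBAL against Control (-0.63 ± 0.20, adjusted p = 0.034), and that call was lost without any library of Control, NoBAL or hiHepD8 (adjusted p = 0.06 to 0.14). ABCG2, an exporter of drugs and urate, had 10.2 and 11.3 FPKM in hiHepD8, 10.1 in hiHepD4, 5.12 and 4.55 in EmptyBAL, 8.26 and 10.5 in NoBAL, and 7.11, 11.3 and 7.70 in Control, so that only EmptyBAL stood apart.

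Of 11 genes of xenobiotic sensing and conjugation, 8 were found and tested. In EmptyBAL against Control 1 was higher and 5 lower, in NoBAL 0 higher and 2 lower, and in hiHepD8 0 higher and 2 lower. The shares of all genes were 24.4% and 29.3% in EmptyBAL, 25.2% and 24.2% in NoBAL, and 15.1% and 17.1% in hiHepD8. NR1I2, which encodes the pregnane X receptor, a sensor that switches on drug exporters, was lower than Control in each, by -1.62 ± 0.21 in hiHepD8, -2.88 ± 0.21 in EmptyBAL and -1.78 ± 0.21 in NoBAL (adjusted p = 0.0011, 4e-05 and 0.00039).

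ABCC8 and ABCC9 are sulfonylurea receptors, the regulatory subunits of ATP-sensitive potassium channels, and are not transporters. ABCC8, known from pancreatic beta cells, had 0.270 and 0.188 FPKM in hiHepD8, 2.20 in hiHepD4, 0.184 and 2.02 in EmptyBAL, 3.18 and 4.37 in NoBAL, and 0.132, 0.208 and 0.0379 in Control. NoBAL stood above every other library, and the EmptyBAL libraries differed by more than 2-fold, EmptyBAL 1 lying within the Control range. ABCC8 was higher in NoBAL than in Control by 2.07 ± 0.34 (adjusted p = 0.0019) and lower in hiHepD8 than in NoBAL by -1.95 ± 0.38 (adjusted p = 0.0044), and both calls held without each library. Against NoBAL, EmptyBAL was lower by -1.33 ± 0.38 (adjusted p = 0.032), which became -0.65 (adjusted p = 0.040) without EmptyBAL 1 and -2.0 (adjusted p = 0.00027) without EmptyBAL 2 and was lost without any other library (adjusted p = 0.055 to 0.13). ABCC9, known from vascular smooth muscle and pericytes, had 2.33 and 2.27 FPKM in hiHepD8, 0.223 in hiHepD4, 0.331 and 0.806 in EmptyBAL, 0.190 and 0.201 in NoBAL, and 0.482, 0.443 and 0.364 in Control. The hiHepD8 libraries were the highest, and since they alone brought ABCC9 past the filter, the values are given as a description. Of 7 stellate and fibroblast markers, 5 were called higher and 0 lower in hiHepD8 against Control, and 2 higher (DCN and PDGFRB) and 0 lower in hiHepD8 against NoBAL. In hiHepD8 against EmptyBAL 0 were higher and 0 lower. In NoBAL against Control 3 were higher and 0 lower. ABCC9, below 1 FPKM in both of these groups, was not called there (-0.26 ± 0.15, adjusted p = 0.18 with limma). In EmptyBAL 5 were higher and 0 lower against Control, and 1 higher and 0 lower against NoBAL. Against Control 15.1% of all genes were higher in hiHepD8, 25.2% in NoBAL and 24.4% in EmptyBAL. Against NoBAL the share was 22.5% in hiHepD8 and 12.6% in EmptyBAL, and in hiHepD8 against EmptyBAL it was 22.6%. PDGFRB, a receptor of pericytes and stellate cells, had 49.2 and 50.8 FPKM in hiHepD8, 11.6 in hiHepD4, 74.0 and 36.8 in EmptyBAL, 25.8 and 15.9 in NoBAL, and 34.8 to 36.5 in Control. The part of these cells in the ABCC9 values was not tested.

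The single hiHepD4 library was compared by size only, past 2-fold on the same log2 scale, with no test. Against NoBAL, 5 members were higher and 0 lower, where 7.60% and 7.56% of all genes were. These were ABCA1 (1.115), ABCA3 (1.525), ABCA6 (2.08), ABCA8 (1.46) and ABCC5 (1.485), 4 of them lipid transporters of subfamily A. Without NoBAL 2 only 3 passed, since ABCA1 was then at 0.89 and ABCA3 at 0.799. Against Control, 2 were higher (ABCC5 at 1.91 and ABCC8 at 1.51) and 5 lower (ABCA6, ABCA8, ABCA9, ABCC1 and ABCG1), where 8.19% and 11.2% of all genes were. Against EmptyBAL, 7 were higher and 2 lower, where 16.5% and 13.4% of all genes were, among them ABCG8 (3.02), ABCG5 (2.45), ABCA6 (2.31) and ABCD3 (1.998). These sizes rest in part on EmptyBAL 1, without which 6 were higher and 1 lower and the differences were 1.83 for ABCG8, 1.37 for ABCG5, 2.10 for ABCA6 and 0.682 for ABCD3.

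Day 8 and day 4 of the cell-filled device were far apart for several members. In hiHepD8 against hiHepD4, 5 members were more than 2-fold higher and 5 lower, where 11.1% and 12.3% of all genes were. ABCG1 (3.11), ABCA9 (2.05), ABCC9 (1.43, a gene that passed through hiHepD8 alone), ABCA8 (1.36) and ABCC1 (1.22) were higher on day 8. ABCB8 (-2.59), ABCD3 (-1.99), ABCC8 (-1.38), ABCA3 (-1.31) and ABCD4 (-1.14) were lower. With 1 library on day 4 these differences have no replicate check.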

How the data were processed

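The authors deposited 1 table of FPKM for 10 libraries and 31905 genes; no header names the unit, which was read from its fractional values and Cufflinks-style columns. Per the labels' protocols, Trizol served for total RNA, TruSeq for the libraries and an Illumina HiSeq for paired-end reads. The submitters' processing notes name HISAT2, HTSeq and Cufflinks and 2 builds, mm10 (of mouse, set aside) and Sscrofa11.1, with no role for any. FPKM are scaled within a library, so a rise of abundant genes lowers all others, and near-identical or overlapping genes may share fragments. Whole fragments could not be recovered: the commonest ratio between replicates held for 0.273% to 2.32% of low genes, so depth is unknown and no counting interval is given.

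Genes that reached 1 FPKM in 2 or more libraries were tested on the scale log2(FPKM + 1), whose pseudocount of 1 understates changes of low genes. All 10 libraries entered 1 limma fit (version 3.58.1, R 4.3.3) with a mean per group and a mean-variance trend, with 5 residual and 2.7 prior degrees of freedom. Tests were two-sided with Benjamini-Hochberg adjustment over 12180 genes in each of 6 comparisons. The hiHepD4 library supplied a mean and no test. SEs are limma's. The script was tested on simulated data. Coordinates came from RefSeq's Sscrofa11.1 annotation by symbol, for 32 of 34 members. Values in every library are given for the 2 most abundant members of each subfamily and, per comparison, the called members with the 3 largest rises and falls whose groups did not overlap, 19 members by this rule; other members were named beside them, and at most 4 called genes of a list per comparison. The values of some of these genes are not reported here. Members, lists of partner genes and cell type markers were chosen with earlier results of these data known. Alternatives were another pseudocount, no filter, upper-quartile scaling, no trend, only the libraries compared, a replicate block, Control and hiHepD8 each averaged to 1 sample, summed entries of a symbol, a 2-fold minimum and leaving out each library. Plots were drawn with matplotlib 3.10.9 and tables made with pandas 2.3.3 (numpy 2.4.6, Python 3.11.15).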

Additional observations from a re-analysis of the deposited data

How the results depend on the processing

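No called change of a member reversed under any setting. The counts of called members in this paragraph include ABCA4 and ABCC9. Of 85 calls, 49 held without each library in turn, and the count in each comparison then ranged from 10 to 19 in NoBAL against Control, 11 to 17 in EmptyBAL against Control, 7 to 18 in hiHepD8 against Control, 11 to 18 in hiHepD8 against NoBAL, 7 to 17 in hiHepD8 against EmptyBAL and 7 to 16 in EmptyBAL against NoBAL. With Control and hiHepD8 each counted as 1 sample, 2, 2, 0, 4, 0 and 0 members were called in these comparisons in the same order (7, 8, 5, 9, 8 and 8 at an unadjusted p under 0.05), a fit with 2 residual degrees of freedom. Requiring 2-fold left 9 in NoBAL against Control, 7 in EmptyBAL against Control and 7 in EmptyBAL against NoBAL. Fitting only the 2 groups compared gave 22 in hiHepD8 against Control, 8 in hiHepD8 against EmptyBAL and 0 in EmptyBAL against NoBAL. Upper-quartile scaling moved the median of all genes by 0.165 to 0.198 in EmptyBAL and hiHepD8 against Control and against NoBAL (EmptyBAL against Control 0.178, hiHepD8 against NoBAL 0.185), ended 10 calls and left 8 in EmptyBAL against NoBAL; the share of called genes that were higher went to 57.0%, 62.0%, 60.1% and 63.4%, against 45.4%, 46.9%, 47.5% and 37.0%, in EmptyBAL and hiHepD8 against Control and in hiHepD8 and EmptyBAL against NoBAL. The cause of these shifts was not tested.

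Libraries with the same number correlated at -0.054 to 0.137 in their deviations from group means, so the numbers were not taken to pair them; with the replicate block 12, 12, 12, 14, 11 and 8 members were called in the order above, and the block ended 16 of 85 calls. Chosen after seeing the data, a filter on the mean over all libraries left out ABCA4 and ABCC9 and ended none of the 78 calls it could test, and counting 4 ABC genes named only by the reference table (ABCA2, ABCC6, ABCF2 and TAP2) gave 15 to 19 calls. Also added then, leaving out 1 library of the group set against hiHepD4 gave 7 members past 2-fold each time against Control, 3 to 7 against NoBAL, 7 to 13 against EmptyBAL and 10 each time in hiHepD8 against hiHepD4.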

Other observations

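ABCC6, which lies 4161 bases from ABCC1 on chromosome 3, carries no symbol in the deposited table and so fell outside the rule; it was identified from the reference table and is described because its values were seen to be large. In people it encodes a hepatocyte protein through which ATP is released, and its loss calcifies elastic tissue. ABCC6 had 24.8 and 26.8 FPKM in hiHepD8, 20.2 in hiHepD4, 1.81 and 2.80 in EmptyBAL, 7.44 and 4.00 in NoBAL, and 123, 124 and 120 in Control, more than any member of the set in Control. It was lower than Control in EmptyBAL (-5.24 ± 0.24, adjusted p = 6.4e-06 with limma), in NoBAL (-4.24 ± 0.24, adjusted p = 1.6e-05) and in hiHepD8 (-2.20 ± 0.24, adjusted p = 0.0005), and higher in hiHepD8 than in NoBAL (2.04 ± 0.27, adjusted p = 0.00074). Control was highest, both hiHep groups lay between, and EmptyBAL was lowest, with no overlap between NoBAL and EmptyBAL.

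TAP1 and TAP2 encode the ABC transporter that delivers peptides for antigen presentation under symbols the rule did not take. TAP2 had 3.93 and 3.74 FPKM in hiHepD8, 9.71 in hiHepD4, 9.27 and 6.70 in EmptyBAL, 10.4 and 15.9 in NoBAL, and 2.95 to 3.34 in Control, and was higher in NoBAL than in Control (1.74 ± 0.21, adjusted p = 0.00038 with limma). TAP1 was called in no comparison and had 6.96 and 6.27 FPKM in hiHepD8, 5.95 in hiHepD4, 9.14 and 10.8 in EmptyBAL, 4.66 and 12.9 in NoBAL, and 6.74 to 7.49 in Control. Of 11 genes of antigen peptide loading, 10 were tested, with 0 higher and 4 lower in hiHepD8 against Control, 4 higher and 0 lower in EmptyBAL against Control and 1 higher and 2 lower in NoBAL against Control. In hiHepD8 against NoBAL 0 were higher and 4 lower, in hiHepD8 against EmptyBAL 0 higher and 6 lower, and in EmptyBAL against NoBAL 3 higher and 0 lower. Against Control the shares of all genes were 15.1% and 17.1% in hiHepD8, 24.4% and 29.3% in EmptyBAL, and 25.2% and 24.2% in NoBAL. They were 22.5% and 24.8% in hiHepD8 against NoBAL, 22.6% and 17.6% in hiHepD8 against EmptyBAL, and 12.6% and 21.4% in EmptyBAL against NoBAL.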
